A study of Mus musculus with 8 samples.

Results

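The genes described here are markers of the cardiac fibroblast and small proteoglycans of the matrix it secretes, in the ventricles of tumor-bearing and control mice. They were chosen by name, with no measured value in the rule, and number 10 of the 43346 genes counted. All 10 had enough counts to be tested. The study compared 2 groups of 4 male C57BL/6 mice, the LLC1 group and the PBS group, in which no gene was altered. At 7 weeks of age the LLC1 mice received 1000000 LLC1 cells, a mouse Lewis lung carcinoma line, suspended in PBS under the skin of the left flank, and the PBS mice received the buffer alone. The cardiac ventricles were taken 14 days later for messenger RNA sequencing, so the tumor grew outside the heart and each library is 1 heart of mixed cell types.

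Fibroblasts of the heart arise largely from the epicardium, for which the transcription factor Tcf21 is needed, and they carry the receptor tyrosine kinase Pdgfra on their surface. They make fibrillar collagen together with small leucine-rich proteoglycans, proteins of repeated leucine-rich units that bind collagen fibrils and set their thickness and spacing. Genes of both kinds are used to recognize the same cell, but the collagen genes are also those that rise when the cell is activated. The question was whether the fibroblast markers and small proteoglycans fell less than collagen in tumor-bearing mice.

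The small proteoglycans are divided into classes by the spacing of 4 cysteines at the start of the mature protein, and this stretch is shown because the members that changed come from different classes. The coding sequences below were read from the longest open reading frame of GENCODE M21 transcripts on mm10, and the capitals mark the 4 cysteine codons. Asporin, Aspn, is no member but is shown as the third gene of class I.
Dcn: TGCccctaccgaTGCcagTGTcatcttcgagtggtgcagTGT
Bgn: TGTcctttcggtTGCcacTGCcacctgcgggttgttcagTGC
Aspn: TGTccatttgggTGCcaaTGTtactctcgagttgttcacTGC
Lum: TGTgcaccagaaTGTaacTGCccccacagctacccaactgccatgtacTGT
Fmod: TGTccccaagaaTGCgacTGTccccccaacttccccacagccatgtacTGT
Prelp: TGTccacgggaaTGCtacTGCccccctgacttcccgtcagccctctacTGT
Ogn: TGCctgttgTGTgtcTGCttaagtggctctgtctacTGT
In Dcn, Bgn and Aspn the cysteine codons are separated by 3, 1 and 6 other codons, the class I spacing. Lum, Fmod and Prelp have 3, 1 and 9, the class II spacing. Ogn has 2, 1 and 6, the class III spacing. On mm10, Dcn (chr10:97479500-97518162) and Lum (chr10:97565501-97572703) lie on the plus strand within 203 kb that also hold Kera and Epyc. Prelp (chr1:133910304-133921414, minus strand) and Fmod (chr1:134037254-134048277, plus strand) lie with Optc within 151.1 kb, and Ogn (chr13:49608071-49624500, plus strand) lies with Ecm2, Aspn and Omd within 119.7 kb. Bgn (chrX:73483602-73495933, plus strand) lies apart from these clusters.

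The libraries held 15342214 to 19747596 counts in LLC1 mice and 12480706 to 16192158 counts in PBS mice. Mouse PBS1-1 stood apart from the rest. On the second principal component, which held 25.2% of the variance, it lay at 35.3 and the other PBS mice at -23.3 to -10.8, and its collagen was the lowest of the PBS group. Results for which its removal changed the call or moved the value by over 1.5 times are given with and without it. Ventricular identity was clear, with 8 cardiomyocyte markers summing to 104207 to 112023 CPM (counts scaled to a library of 1000000 counts) in LLC1 mice and 95385 to 97942 CPM in PBS mice, and 3 atrial markers summing to 2.02 to 3.42 CPM and 2.54 to 4.41 CPM. The sums of the 20 other fibroblast genes were 1424 to 1568 CPM in LLC1 mice and 1388 to 1881 CPM in PBS mice. In whole tissue, fewer cells of a type and less RNA per cell cannot be told apart.

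Per kilobase of gene length, the order of the members ran over more than 2 orders of magnitude. In PBS mice Gsn stood at 446 ± 38.0 CPM per kb and Dcn at 199.5 ± 9.77 CPM per kb (SD, n = 4). Bgn at 49.5 ± 9.52, Dpt at 48.4 ± 2.45 and Ogn at 41.5 ± 5.21 CPM per kb came next, then Lum at 28.7 ± 1.66 and Prelp at 15.9 ± 1.90 CPM per kb. Pdgfra at 8.36 ± 1.16, Tcf21 at 5.39 ± 0.749 and Fmod at 1.27 ± 0.716 CPM per kb were the lowest. Between neighbors in this order, the values of single PBS mice overlapped only for Bgn and Dpt. In LLC1 mice Bgn, at 31.8 ± 3.21 CPM per kb, came after Dpt at 41.9 ± 1.87 and Ogn at 33.9 ± 1.01 CPM per kb, and the other members kept their places. The values of Bgn and Ogn in single LLC1 mice overlapped, and those of Dpt lay above both.

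In tumor-bearing mice 2 of the 10 members were lower, Lum and Bgn, both small proteoglycans, and none was higher. The test was edgeR's quasi-likelihood test over 16111 genes with Benjamini-Hochberg adjustment, and a gene was called at a false discovery rate (FDR) under 0.05. Of all genes tested 4.61% were called lower, and the median log2 fold change was -0.01, against -0.19 over the 10 members. Every LLC1 mouse was below every PBS mouse for 2 of the 10, Lum and Dpt, and for 8.27% of all genes tested. Lum and Bgn were called under every setting tried, while the count ran from 2 to 5 over the 9 other settings and was 4 without PBS2-5 (Gsn higher and Ogn lower were added). Ogn passed in 6 of the 9 settings, Gsn and Dpt in 2 each.

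**Figure D1:**
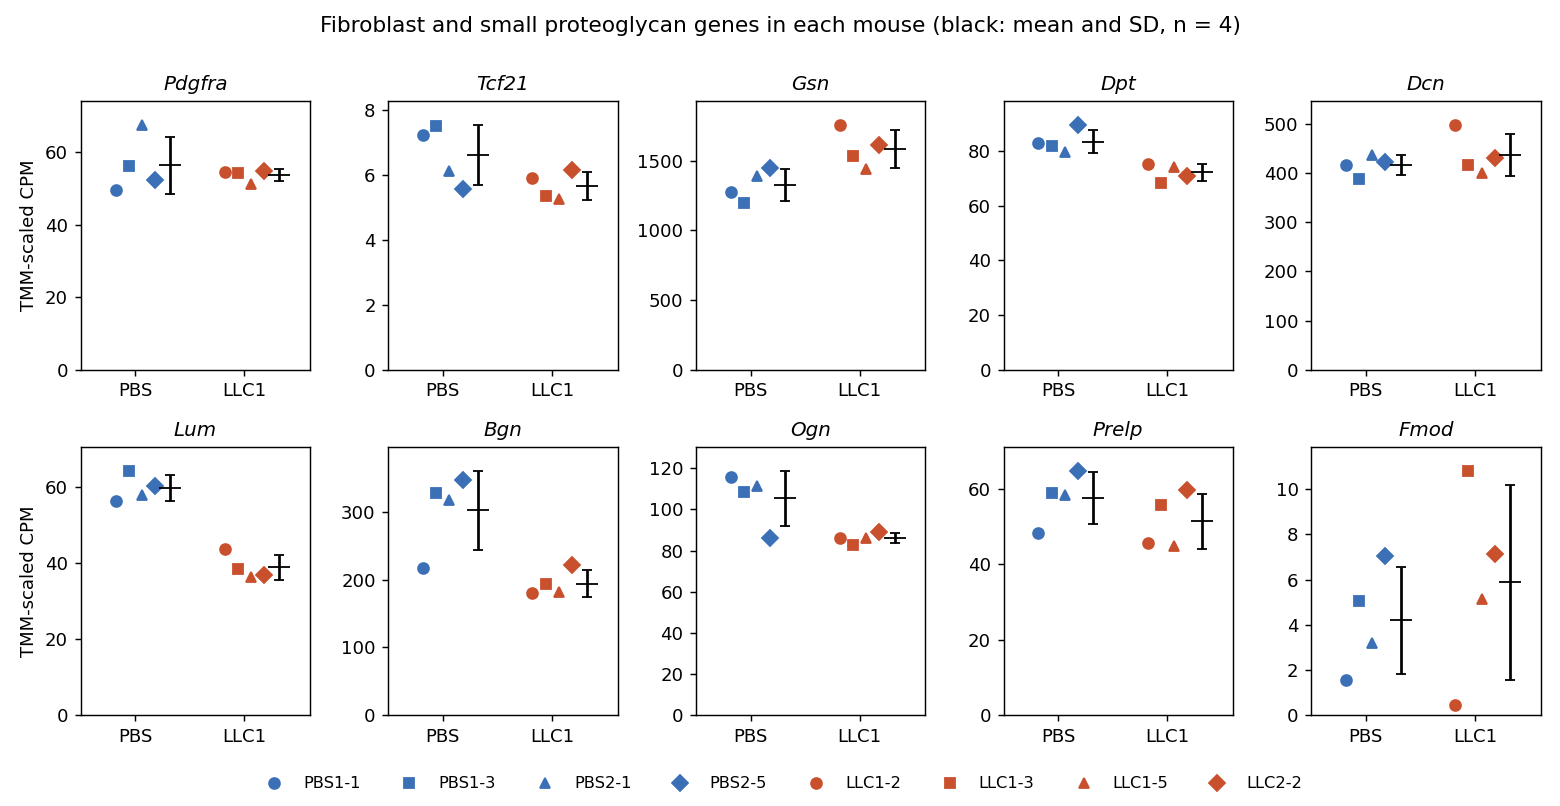
CPM scaled by TMM factors (vertical axes, linear, each from 0) of the 10 members in the 4 PBS mice (blue) and the 4 LLC1 mice (orange), each mouse with its own symbol, with the mean and SD of each group in black. The groups are apart for Lum and Dpt, Bgn overlaps only through PBS1-1 and LLC2-2, and Fmod varies more within the groups than between them.

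The identity genes were not called. Pdgfra (chr5:75152291-75198204, plus strand), the receptor for platelet-derived growth factor by which cardiac fibroblasts are commonly sorted, was at 54.5, 54.2, 51.1 and 54.7 CPM in mice LLC1-2, LLC1-3, LLC1-5 and LLC2-2, and at 49.4, 56.2, 67.3 and 52.3 CPM in mice PBS1-1, PBS1-3, PBS2-1 and PBS2-5. The 4 tumor-bearing mice lay within the range of the controls. Its log2 fold change was -0.07 ± 0.09 (SE, 95% interval -0.27 to 0.12, edgeR FDR 0.654), and it was 0.02 without PBS2-1, the highest mouse, and -0.13 without PBS1-1, the lowest. Of its 10024 exon bases in GENCODE M21, 4.55% and 1.66% are shared with Gm42802 and Gm42803 on the opposite strand. The gene length given with the counts was 6737 bases, so the overlap of the exons counted is not known. Whether the counting used strand is not given in the sources used here.

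Tcf21 (chr10:22817279-22820128, minus strand), in the same order of mice, was at 5.89, 5.33, 5.25 and 6.14 CPM with LLC1 and 7.21, 7.50, 6.12 and 5.55 CPM with PBS. The groups overlapped, and the lowest value of all was a tumor-bearing mouse. This gave a log2 fold change of -0.21 ± 0.13 (95% interval -0.50 to 0.07, edgeR FDR 0.331), from 81 to 122 counts in each mouse.

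Gsn (chr2:35279663-35307892, plus strand) encodes gelsolin, which severs actin filaments and is abundant in fibroblasts though not restricted to them. It stood at 1751, 1535, 1436 and 1608 CPM in LLC1 mice and at 1272, 1197, 1388 and 1449 CPM in PBS mice. Only LLC1-5 was below the highest control, PBS2-5. Its log2 fold change was the one furthest above 0 among the identity genes, at 0.25 ± 0.08 (95% interval 0.08 to 0.43), but did not pass (edgeR FDR 0.0746, exact permutation p = 0.0571). Dpt (chr1:164796644-164824266, plus strand) encodes dermatopontin, a matrix protein that binds decorin. It stood at 75.3, 68.2, 74.1 and 70.9 CPM in LLC1 mice and at 83.0, 81.7, 79.4 and 89.3 CPM in PBS mice. Every tumor-bearing mouse was below every control. The log2 fold change of -0.21 ± 0.06 (95% interval -0.34 to -0.07) did not pass over all genes (edgeR FDR 0.0589), and the exact permutation p was 0.0286, the smallest that 4 against 4 mice can give.

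Of the class I small proteoglycans, Bgn was called lower and Dcn was not. Dcn encodes decorin, the most abundant of them here, which carries 1 sulfated sugar chain and binds fibrillar collagen and growth factors. Its level was 496.5, 416.8, 399.6 and 431.2 CPM in LLC1 mice and 416.0, 388.2, 436.7 and 422.5 CPM in PBS mice. The groups overlapped throughout, with LLC1-2 the highest. Decorin had a log2 fold change of 0.07 ± 0.08 (95% interval -0.10 to 0.23, edgeR FDR 0.612), so a decrease of decorin messenger RNA beyond a log2 of 0.10 lay outside the interval. Without 1 mouse it ran from 0.00 without LLC1-2 to 0.11 without LLC1-5.

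Bgn encodes biglycan, the close relative of decorin. It was at 179.7, 193.1, 181.5 and 222.1 CPM in LLC1 mice and at 216.5, 327.4, 317.1 and 346.0 CPM in PBS mice. The groups overlapped only in that PBS1-1 lay just below LLC2-2. Mean levels were 194.1 ± 19.6 and 301.7 ± 58.1 CPM (SD, n = 4), a fold of 0.643. The log2 fold change was -0.64 ± 0.13 (95% interval -0.92 to -0.36, edgeR FDR 0.0123), and the exact permutation p of 0.0571 did not reach 0.05. Without PBS1-1 the log2 fold change was -0.77 (edgeR FDR 0.00015).

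Of class II, Lum, lumican, which keeps collagen fibrils thin and evenly spaced, had the lowest FDR of the 10 members. It was at 43.6, 38.4, 36.3 and 37.0 CPM in LLC1 mice and at 56.3, 64.2, 57.7 and 60.3 CPM in PBS mice. The groups lay well apart, with a gap wider than the spread within either. Means were 38.8 ± 3.30 and 59.6 ± 3.45 CPM (SD, n = 4), a fold of 0.651 and a log2 fold change of -0.62 ± 0.08 (95% interval -0.78 to -0.46, edgeR FDR 0.00105, exact permutation p = 0.0286). Without PBS1-1 it was -0.65.

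Prelp, a collagen-binding relative that links the matrix to basement membranes, was at 45.5, 55.6, 44.9 and 59.5 CPM in LLC1 mice and at 48.1, 58.9, 58.3 and 64.6 CPM in PBS mice. The groups overlapped. Prelp had a log2 fold change of -0.16 ± 0.11 (95% interval -0.40 to 0.07, edgeR FDR 0.375), from -0.25 without LLC2-2 to -0.10 without LLC1-5, and 9.68% of the exon bases of Prelp are shared with Gm15851 on the other strand.

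Ogn of class III, osteoglycin or mimecan, was at 86.3, 82.8, 85.9 and 89.1 CPM in LLC1 mice and at 115.7, 108.3, 111.5 and 86.1 CPM in PBS mice. The tumor-bearing mice were close together, and among the controls PBS2-5 alone lay at their level. The log2 fold change of -0.29 ± 0.09 (95% interval -0.48 to -0.10) did not pass (edgeR FDR 0.0554, exact permutation p = 0.0857). Without PBS2-5 it was -0.38 (edgeR FDR 0.00384).

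Fmod, fibromodulin, which shares its collagen binding site with lumican, was the lowest member per kilobase and the one with the widest spread between mice relative to its mean. It was at 0.463, 10.8, 5.14 and 7.14 CPM in LLC1 mice and at 1.54, 5.05, 3.18 and 7.02 CPM in PBS mice, from 7 to 164 counts. Both the lowest and the highest mouse carried tumors. Fmod had a log2 fold change of 0.46 ± 0.57 (95% interval -0.78 to 1.70, edgeR FDR 0.654), an interval that holds the value for Lum. Single mice moved it, to 0.03 without LLC1-3, 0.22 without PBS1-1, and 0.83 without either LLC1-2 or PBS2-5, and it was 0.03 with limma-voom. None of these passed the test.

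Across the 8 mice Fmod followed the markers of mesothelium, the sheet of cells that covers the heart. The 7 mesothelial and epicardial markers, all tested and none called, summed to 15.2, 66.5, 41.3 and 57.5 CPM in LLC1 mice and to 22.7, 43.6, 27.1 and 51.7 CPM in PBS mice. None of the 7 was at 0 in all mice. Their log2 sum and log2 Fmod had a Pearson r of 0.97 (permutation p = 4.96e-05, adjusted 0.000496) and a Spearman rho of 0.98 (permutation p = 0.000397, adjusted 0.00397) over 8 mice, and r was 0.98 over 6 mice without LLC1-2 and PBS1-1, the mice furthest from the median on the log2 scale. The p-values were adjusted over the 10 members, which does not cover the choice of this marker list. For the other 9, r ran from -0.63 for Dcn to 0.61 for Prelp, and none passed. This relation was noticed after the values were seen. After each group's mean was removed, a step added after the data were seen, r for Fmod was 0.98 and rho 0.95 over the 8 mice. For the other 9 members r then ran from -0.72 for Dcn to 0.76 for Prelp. These values are given as a description. The part of the covering cells in the level of Fmod was not tested.

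**Figure D2:**
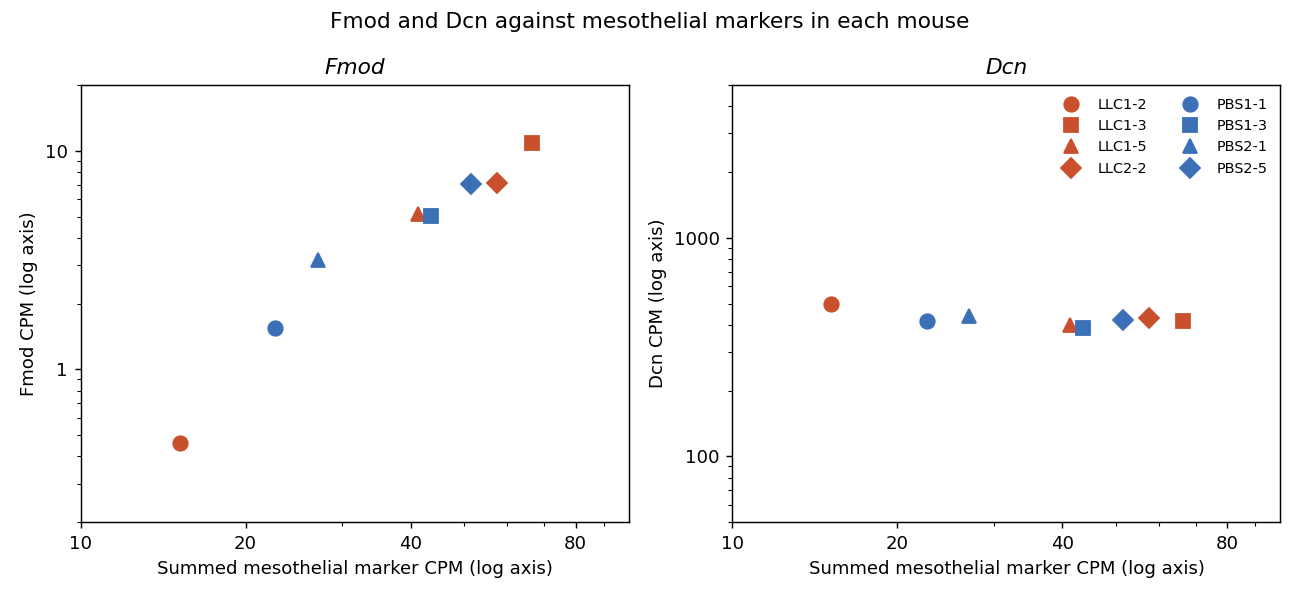
CPM of Fmod (left) and Dcn (right) on log vertical axes against the summed CPM of 7 mesothelial and epicardial markers on a log horizontal axis, 1 point per mouse (blue PBS, orange LLC1). Fmod runs from 0.463 CPM in the mouse with the lowest sum to 10.8 CPM in the mouse with the highest, while Dcn stays between 388.2 and 496.5 CPM. Both vertical axes span 2 factors of 10.

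Collagen was lower in tumor-bearing mice. Of 17 collagen chains tested, 15 were lower and none higher, with a median log2 fold change of -0.64, and all 17 estimates were negative. Type XV collagen Col15a1 (-0.98, edgeR FDR 0.000489), type V collagen Col5a1 (-0.64, edgeR FDR 0.00317) and type VI collagen Col6a3 (-0.85, edgeR FDR 0.00376) had the lowest FDR. The 2 not called were Col12a1 (-0.59, edgeR FDR 0.163) and Col16a1 (-0.23, edgeR FDR 0.389). Of the main fibrillar chains, Col1a1 changed by -0.60 (edgeR FDR 0.0456), Col1a2 by -0.63 (edgeR FDR 0.0198) and Col3a1 by -0.98 (edgeR FDR 0.00683) on the log2 scale.

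**Figure D3:**
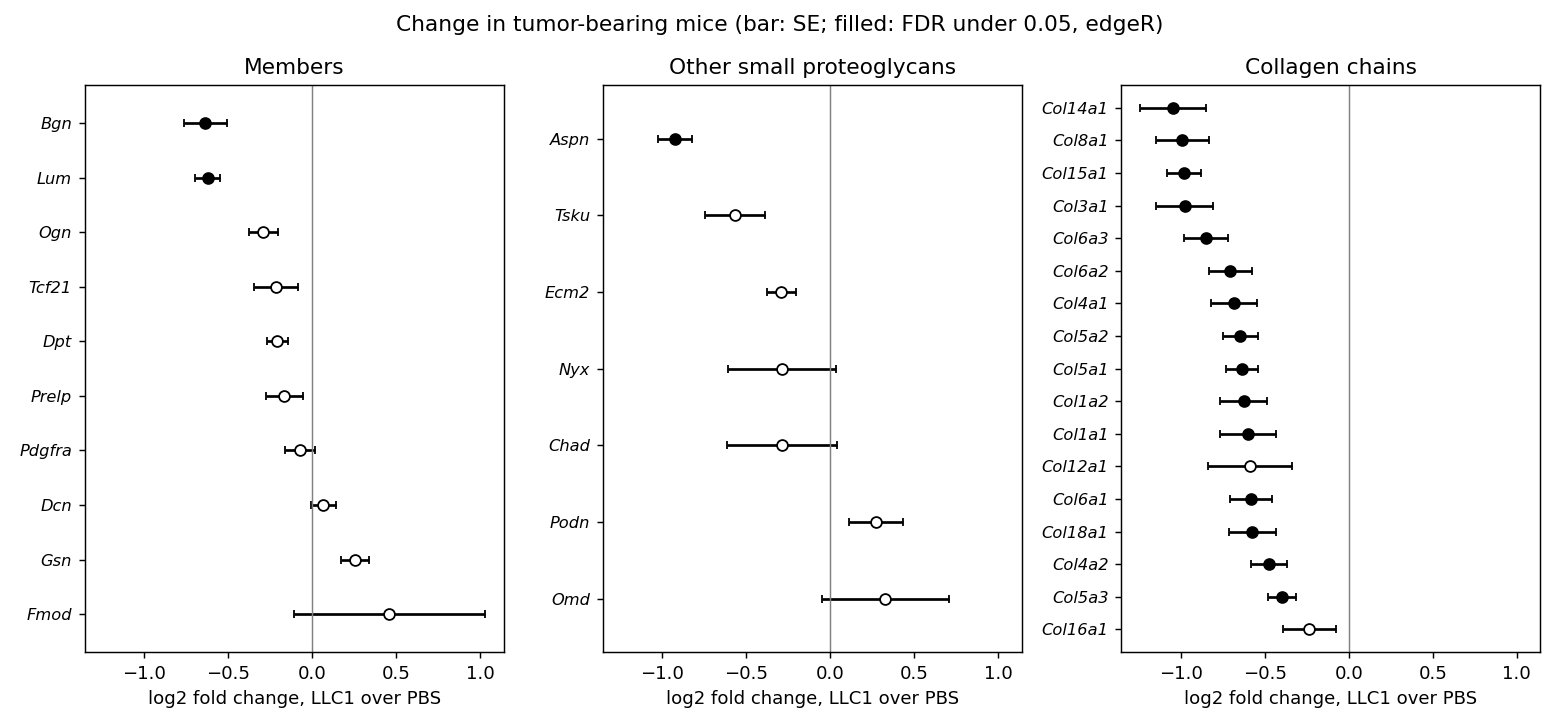
Log2 fold change of LLC1 over PBS (horizontal axes) with its SE for the 10 members, the 7 other small proteoglycans tested and the 17 collagen chains, filled where the edgeR FDR was under 0.05. The collagen chains lie on the negative side, from -1.05 to -0.23, and the members from -0.64 for Bgn to 0.46 for Fmod.

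The members were then set against collagen within each mouse. The summed level of Col1a1, Col1a2 and Col3a1 was 385.1, 457.7, 468.1 and 542.5 CPM in LLC1 mice and 539.3, 872.0, 814.5 and 1011 CPM in PBS mice. Only PBS1-1 reached down to the tumor-bearing mice. The log2 difference of the sum was -0.78, a fold of 0.583 (exact permutation p = 0.0571), and -0.96 without PBS1-1.

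With this sum as the base of the fit, 6 of the 10 members were called higher relative to collagen (edgeR FDR under 0.05), namely Pdgfra, Gsn, Dpt, Dcn, Prelp and Fmod. Of all genes tested 76.4% were, since every gene was divided by the same falling quantity, so a rise relative to collagen is not particular to the members. With all genes of at least 1 count in the fit, 5 of 10 members and 43.5% of all genes were called. The ratio was higher in every LLC1 mouse than in every PBS mouse for 4 of 10, Pdgfra, Gsn, Dcn and Prelp, and for 42.9% of all genes. The collagen sum is shared by all genes, and a spread pooled across genes does not carry its error fully. A test of each gene with its own spread, added after the data were seen, called those 4 members and 56.2% of all genes. The count of 6 became 3 without LLC1-2, PBS1-3 or PBS2-5 (Gsn, Dcn and Fmod each time), where 50% to 52.9% of all genes were called, and 2 with Col1a1 alone as the base (Gsn and Fmod), where 31.9% were.

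Relative to collagen the members ran from 0.15 for Lum to 1.30 for Fmod on the log2 scale. The log2 ratio of Dcn to collagen was 0.37, -0.14, -0.23 and -0.33 in LLC1 mice and -0.37, -1.17, -0.90 and -1.26 in PBS mice. The groups did not overlap, though PBS1-1 came close to LLC2-2. The difference was 0.83 ± 0.27 (SE), a fold of 1.77 (edgeR FDR 0.00645, exact permutation p = 0.0286). Gsn rose relative to collagen by 1.02 ± 0.27 (edgeR FDR 0.00195), Pdgfra by 0.70 ± 0.25 (edgeR FDR 0.0120) and Prelp by 0.61 ± 0.25 (edgeR FDR 0.0234), each with an exact permutation p of 0.0286. The log2 difference of the collagen sum was -0.78 and the median log2 fold change of all genes -0.01. A gene with no change of its own therefore also rises in this ratio. The rises of Pdgfra and Prelp, and that of Dpt below, were smaller than the fall of the collagen sum. Prelp was no longer called without any 1 of LLC1-2, LLC1-3, PBS1-3, PBS2-1 and PBS2-5 (0.55 to 0.60), nor Pdgfra without any 1 of LLC1-2, PBS1-3 and PBS2-5 (0.56 to 0.64). Without PBS1-1 the differences were 1.04 for Dcn, 1.21 for Gsn, 0.83 for Pdgfra and 0.72 for Prelp. The ratio of Dpt rose by 0.55 ± 0.25 (edgeR FDR 0.0418) but overlapped between the groups through PBS1-1 (exact permutation p = 0.0857), and with its own spread it was not called (linear model FDR 0.0632). It was also not called with the first number of the mouse code as a covariate (0.46, edgeR FDR 0.0553), nor without any 1 mouse other than LLC2-2 and PBS1-1. Without PBS1-1 the pooled difference for Dpt was 0.76.

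Lum and Bgn, the members that were lower in tumor-bearing mice, were not called different from collagen, and their intervals held 0. For Lum the ratio differed by 0.15 ± 0.25 (edgeR FDR 0.555, exact permutation p = 0.457), or by 0.33 without PBS1-1 (edgeR FDR 0.0633), and with its own spread the 95% interval was -0.40 to 0.72. The log2 ratio of Bgn to collagen was -1.10, -1.25, -1.37 and -1.29 in LLC1 mice and -1.32, -1.41, -1.36 and -1.55 in PBS mice. These 8 values lay within 0.45 of each other, the narrowest range of the 10 members, against 1.63 for Dcn and 1.73 for Gsn. The difference for Bgn was 0.16 ± 0.26 (edgeR FDR 0.549, exact permutation p = 0.0857), with an interval of -0.02 to 0.34 on its own spread. Tcf21 (0.52 ± 0.26, edgeR FDR 0.0617) and Ogn (0.43 ± 0.26, edgeR FDR 0.114) were not called in this fit. Both were called without PBS1-1, at 0.78 (edgeR FDR 0.000274) and 0.71 (edgeR FDR 0.000129), where 91.0% of all genes were called. The log2 difference of the collagen sum was then -0.96. Both were also called with Col3a1 alone as the base (edgeR FDR 0.0200 and 0.0426), where 86.8% of all genes were. Tcf21 was called with limma on the log2 ratio (FDR 0.0353), where 81.6% of all genes were. Without PBS2-5 Tcf21 and Ogn were 0.35 and 0.25 and were not called. Fmod was called at 1.30 ± 0.31 (edgeR FDR 0.000849), but its ratios overlapped (exact permutation p = 0.429). The linear model with its own spread gave a lower estimate, 0.85, with an interval of -1.37 to 3.06.

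**Figure D4:**
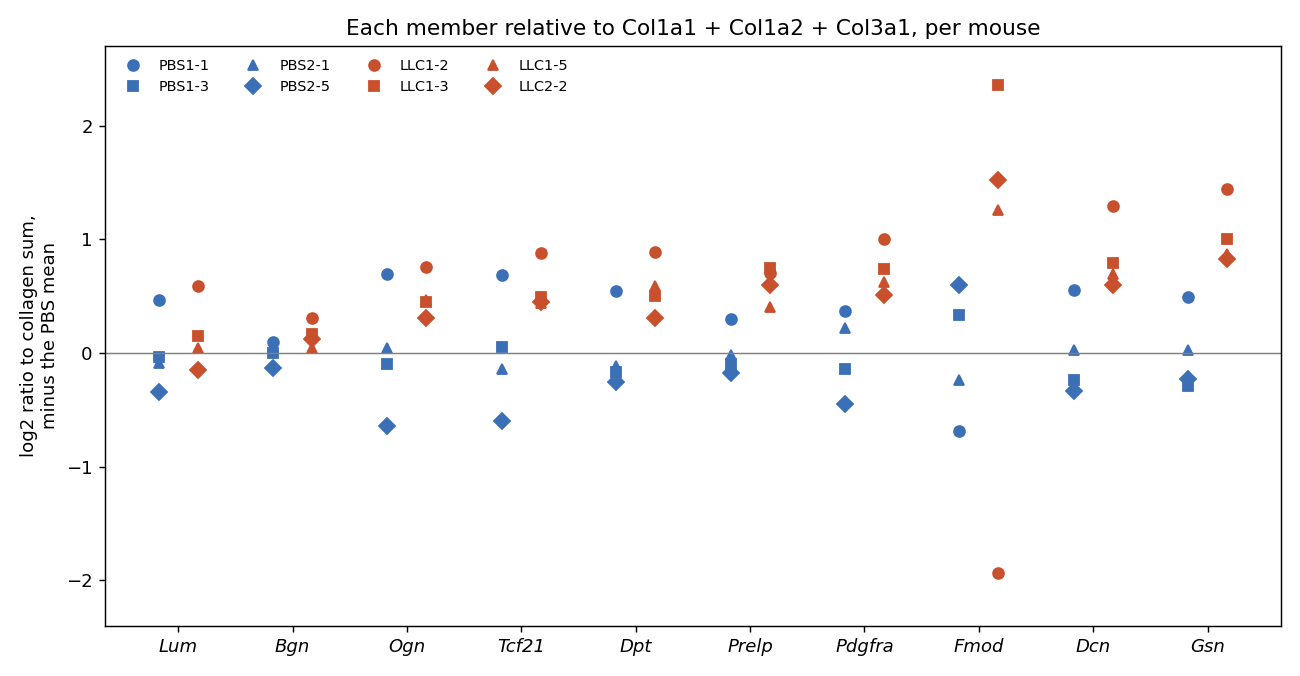
Log2 ratio of each member to the summed Col1a1, Col1a2 and Col3a1 counts in each mouse (vertical axis), shown as the difference from the mean of the 4 PBS mice, with the members ordered along the horizontal axis by the difference of the group means. Bgn varies least over all 8 mice, Gsn and Dcn are higher in every LLC1 mouse (orange) than in every PBS mouse (blue), and PBS1-1 (blue circles) is the highest PBS mouse for each member but Fmod.

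Direct ratios between the proteoglycans, chosen after their values were seen, do not use collagen. The log2 ratio of Lum to Dcn was -3.51, -3.44, -3.46 and -3.54 in LLC1 mice and -2.89, -2.60, -2.92 and -2.81 in PBS mice. All tumor-bearing mice were lower, by 0.69 on average. The log2 ratio of Bgn to Dcn was -1.47, -1.11, -1.14 and -0.96 in LLC1 mice and -0.94, -0.25, -0.46 and -0.29 in PBS mice, again with no overlap and a difference of -0.68. The ratio of Bgn to Lum overlapped between the groups and differed by 0.00. As the pairs were picked for these differences, no test is given for them.

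The rest of the small proteoglycan family was described by lists chosen with earlier results known. The share of all genes called lower, 4.61%, applies beside each list count below. Of 11 other members of the family 7 were tested, and 1 was lower and none higher, with a median log2 fold change of -0.29. The 1 called was Aspn, asporin, a class I relative that binds collagen and transforming growth factor beta, at 20.6, 16.0, 17.7 and 19.8 CPM in LLC1 mice and 32.5, 37.6, 39.0 and 31.6 CPM in PBS mice. The groups did not overlap. Its log2 fold change was -0.92 ± 0.10 (edgeR FDR 0.000635), next to -0.64 for Bgn and 0.07 for Dcn of the same class. Ecm2 (-0.29, edgeR FDR 0.0528) and Tsku (-0.57, edgeR FDR 0.0719) did not pass, and Kera was at 0 counts in every mouse.

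The enzymes that build chondroitin and dermatan sulfate, the sugar chains of decorin and biglycan, were counted next. Of 19 tested, 1 was lower and none higher, near the 4.61% of all genes called lower, with a median log2 fold change of -0.13. The one called was Chst15, which adds sulfate to the chain (-0.51, edgeR FDR 0.0465). The epimerases that turn chondroitin into dermatan sulfate, Dsel (-0.43, edgeR FDR 0.0537) and Dse (-0.41, edgeR FDR 0.0859), came next. Of 12 large and cell-surface proteoglycans tested, 3 were lower and none higher, with a median of -0.20. These were versican, Vcan, a large proteoglycan of provisional matrix (-1.07, edgeR FDR 0.00103), the glypican Gpc6 (-0.56, edgeR FDR 0.0230) and the syndecan Sdc2 (-0.26, edgeR FDR 0.0294).

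Of the other 5 genes of the platelet-derived growth factor system none was called, with a median log2 fold change of -0.31. The lowest FDRs were those of the ligands Pdgfb (-0.42, edgeR FDR 0.0595) and Pdgfd (-0.24, edgeR FDR 0.127) and of the second receptor, Pdgfrb (-0.32, edgeR FDR 0.184), next to -0.07 for Pdgfra. Of 11 genes of activated fibroblasts tested, 4 were lower and none higher, with a median of -0.57. They were the transcription factor Meox1 (-1.30, edgeR FDR 0.000489), periostin, Postn (-1.35, edgeR FDR 0.00113), tenascin C, Tnc (-1.74, edgeR FDR 0.0119) and fibronectin, Fn1 (-0.69, edgeR FDR 0.0333).

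Of the 20 other fibroblast genes, all tested, 4 were lower and none higher, with a median log2 fold change of -0.24. These were the collagen receptor Ddr2 (-0.50, edgeR FDR 0.00217), vimentin, Vim (-0.59, edgeR FDR 0.0139), Cd248 (-0.51, edgeR FDR 0.0237) and Islr (-0.44, edgeR FDR 0.0427).

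Markers of other cells moved as follows, and their part in the results was not tested. Of 8 cardiomyocyte markers 1, Myh6, was higher and none lower (median log2 fold change 0.12). Of 8 endothelial markers Kdr (-0.61) and Emcn (-0.31) were lower and Flt1 (0.35) was higher (median -0.22, sums 1010 to 1143 CPM with LLC1 and 1092 to 1388 CPM with PBS). None of 8 smooth muscle and pericyte markers was called (median -0.06), and of 7 macrophage markers 1, Mrc1, was lower (median -0.27, sums 175.3 to 219.1 CPM and 181.6 to 272.5 CPM). Neither of the 2 atrial markers tested was called, and no adipocyte marker had enough counts to be tested (sums up to 2.35 CPM). All 4 genes of dividing cells that were tested, Top2a, Mki67, Cdk1 and Birc5, were lower, with a median of -2.83. The sums over all 6 genes of that list were 2.30 to 4.92 CPM in LLC1 mice and 14.7 to 45.9 CPM in PBS mice.

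Within the groups the members followed each other unevenly. After each group's mean was removed, the correlation of each member with the mean standardized deviation of the 10, which includes the member itself, ran from -0.17 for Ogn to 0.70 for Bgn over 8 mice. The 5 other genes whose deviations were most like that mean were St6galnac2, Gpr65, Mxra8os, Frzb and Bhlhb9, with r of 0.95 to 0.96, the highest of all genes with a mean of at least 1 CPM. These values are a description of 8 libraries.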

How the data were processed

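Total RNA of the cardiac ventricles of 8 mice was made into TruSeq V2 libraries and sequenced with 150-base reads. The deposited values are unnormalized gene-level read counts per mouse. The submitters' processing notes name CASAVA, STAR, featureCounts and mm10. The annotation release and strand setting are not given in the sources used here. Groups came from the stated treatment, and no 2 libraries of a group agreed within sampling noise.

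Genes were kept by filterByExpr, libraries were scaled by TMM, and edgeR 4.0.16 (R 4.3.3) was fitted without covariates. CPM are scaled by TMM factors. SEs are the log2 fold change over the square root of F, and log2 ratios were formed from counts. Exact permutation tests covered all 70 arrangements of the mice, two-sided. For the collagen comparison, the offset was the log of the summed Col1a1, Col1a2 and Col3a1 counts. An unpooled linear model per gene and the pair ratios were added after the data were seen. Alternatives were DESeq2 1.42.0, limma 3.58.1, other scalings, filters, collagen denominators and leaving out each mouse.

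Named genes were the 10 members, the 3 collagen chains of the denominator, the 3 genes of lowest FDR in each list and the 5 most like the members; other names in the text were chosen after their values were seen. The members and lists were chosen with earlier results of these data known. GENCODE M21 (mm10) matched all 10 members by ID, 4 with the same coordinates. Levels per kb used the gene lengths given with the counts. These differ from GENCODE M21 for some members (Dcn, 2084 against 5838 exon bases). Scripts were tested on simulated data. Intervals cover the spread between 4 mice a group.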

Additional observations from a re-analysis of the deposited data

Results flagged for a closer look

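The level of Pdgfra in mouse LLC1-5, 51.1 CPM, lay apart from the other LLC1 mice, which were within 54.2 to 54.7 CPM. Its gap to the nearest of them was 0.849 of the range of the group, above Dixon's 95% critical value for 4 samples. It was the only such value among 26 groups of values checked, and chance gives about 1 in 20.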

How the results depend on the processing

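Lum and Bgn were called lower under all 9 other settings and without any 1 mouse, with log2 fold changes of -0.68 to -0.59 and -0.77 to -0.57. The count of members changed, 2 as reported, was 4 with scaling to total counts (Dpt and Ogn added), 5 with DESeq2's Wald test (Gsn, Dpt and Ogn added) and 4 with the first number of the mouse code as a covariate (Gsn and Ogn added). It was 3, with Ogn added, with robust empirical Bayes and under both other filters on low counts. Over all genes tested, 1406 were called as reported, 1018 with total counts, 1738 with DESeq2, 1681 with the covariate and 1637 without PBS2-5. Leaving out 1 mouse gave 2 to 4, with 4 only without PBS2-5 (Gsn and Ogn added). Pdgfra ranged from -0.128 to 0.0218 without 1 mouse, above 0 only without PBS2-1. Relative to collagen, the count of members called, 6 as reported, was 2 with Col1a1 alone as the base (Gsn and Fmod), 8 with Col3a1 alone, and 3 to 8 without 1 mouse, with 3 without LLC1-2, PBS1-3 or PBS2-5 (Gsn, Dcn and Fmod) and 8 without PBS1-1 (Tcf21 and Ogn added). It was 5 with the first number of the mouse code as a covariate (Dpt lost). The share of all genes called was 76.4% as reported, 86.8% with Col3a1 alone and 71.3% with that covariate. It ranged from 31.9% with Col1a1 alone to 91.0% without PBS1-1, so the larger counts are not particular to the members. With Col1a1 alone, Lum and Bgn changed by -0.0229 and -0.0282 relative to collagen, and without 1 mouse Lum ranged from -0.00841 to 0.330, below 0 without LLC1-2. The cause of these shifts was not tested. Collagen chains lower numbered 10 to 16 under all settings. No paired analysis was possible because the groups share only 1 replicate code. Tcf21 rests on 81 to 122 counts a mouse.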
